A study of Mus musculus with 36 samples.

Results

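The ribosome-bound RNA response of cortical pyramidal neurons to a forced swim was measured 1 h after the swim in mice with 1 mutated copy of Shank3. The comparison took the 5 libraries of swum Shank3 mutants at 1 h and the 3 libraries of naive Shank3 mutants of the same cohort, cohort 1, which together are 8 of the 36 libraries in the series. Effects are given as swim over naive. Both groups carried Shank3(deltaC/+), with HA-Rpl22(f/+) for the tag and Camk2a-Cre(+/-) as the driver, on the C57BL6JL strain, and the age of the mice is not given in the sources used here. Swum mice spent 5 min in water by the sample labels and 6 min by the treatment protocol, at 25 °C, and went back to their home cages until the brain was taken, while naive mice stayed in theirs. The other groups used below are WT littermates with Shank3(+/+) and the same HA-Rpl22 and Camk2a-Cre alleles, 6 libraries at 1 h and 3 naive libraries of cohort 1, and Shank3 mutants 4 h after the swim, 6 libraries with 4 naive libraries of cohort 2.

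Shank3 encodes a scaffold protein of the postsynaptic density, where it links glutamate receptors to the actin cytoskeleton, and loss of 1 copy is a known cause of neurodevelopmental disorder in people. In RiboTag mice a Cre driver switches on an HA-tagged copy of the ribosomal protein Rpl22, and pulling down the tag recovers RNA that sits on ribosomes of the Cre-expressing cells. The Camk2a promoter is active in forebrain pyramidal neurons, so the measurement covers those cells and also RNA carried along in the pull-down. When neurons fire strongly, calcium and the Ras-ERK kinase cascade act on factors already bound to DNA, such as CREB and SRF, and a set of rapid response genes is transcribed without new protein synthesis. Their products are mostly transcription factors of the AP-1, Egr and Nr4a families and proteins that act at synapses, such as Arc.

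The promoters of the 4 rising rapid response or synaptic effector genes with the smallest p among those with an entry in the promoter table are shown because these genes are the rapid response members the results turn on. Each runs from 250 bases before to 50 bases after the annotated start, 5′ to 3′, from RefSeq on GRCm38.p6, whose starts can differ from those of the GENCODE genes used for overlaps. Capitals mark the CRE core, TGACG on either strand, and the TATA box, TATAAA on either strand, both of which were added to the search after the sequences had been seen.
Fos, chr12:85473640-85473939, plus strand: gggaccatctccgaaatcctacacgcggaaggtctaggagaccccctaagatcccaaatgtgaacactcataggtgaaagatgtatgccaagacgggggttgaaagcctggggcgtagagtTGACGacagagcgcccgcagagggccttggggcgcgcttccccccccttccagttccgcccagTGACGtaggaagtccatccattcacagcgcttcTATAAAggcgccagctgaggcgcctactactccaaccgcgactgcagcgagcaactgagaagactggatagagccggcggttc
Nr4a1, chr15:101266596-101266895, plus strand: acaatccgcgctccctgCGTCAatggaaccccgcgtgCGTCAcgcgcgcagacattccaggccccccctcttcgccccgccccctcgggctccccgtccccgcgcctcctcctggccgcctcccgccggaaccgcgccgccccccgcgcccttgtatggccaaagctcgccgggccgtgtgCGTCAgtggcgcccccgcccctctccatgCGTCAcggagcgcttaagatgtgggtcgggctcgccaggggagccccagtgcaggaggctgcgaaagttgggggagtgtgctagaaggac
Nr4a3, chr4:48045055-48045354, plus strand: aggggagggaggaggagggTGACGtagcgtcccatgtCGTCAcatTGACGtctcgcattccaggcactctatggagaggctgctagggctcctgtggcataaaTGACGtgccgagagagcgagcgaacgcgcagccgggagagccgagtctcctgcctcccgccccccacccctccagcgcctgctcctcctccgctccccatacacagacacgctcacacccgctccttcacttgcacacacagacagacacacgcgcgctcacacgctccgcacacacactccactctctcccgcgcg
Arf4, chr14:26637884-26638183, plus strand: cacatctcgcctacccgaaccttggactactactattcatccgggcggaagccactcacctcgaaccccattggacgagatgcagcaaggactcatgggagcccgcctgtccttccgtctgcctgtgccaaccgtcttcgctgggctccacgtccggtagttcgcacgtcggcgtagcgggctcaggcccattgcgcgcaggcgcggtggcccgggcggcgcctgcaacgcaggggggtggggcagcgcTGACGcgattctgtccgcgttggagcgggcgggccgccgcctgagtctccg
The Fos promoter held 2 CRE cores, with first bases 129 and 66 bases before the start, and a TATA box 33 bases before it. Nr4a1 held 4 CRE cores, at 233, 213, 69 and 40 bases before the start, and Nr4a3 held 4, at 231, 213, 205 and 147. Arf4 held 1 CRE core, 1 base before the start. The full CRE (TGACGTCA), the AP-1 motif (TGANTCA), the Nr4a motif (AAAGGTCA) and the CArG box were each searched on both strands and matched 0 times in these 4 windows. The CRE core is part of the full CRE, and it was present in 20.8% of all 32851 promoters in the table, in 31.6% of the 10476 promoters of tested genes, in 34.9% of the 518 of genes that rose and in 27.3% of the 656 of genes that fell. Among 8 rapid response and synaptic effector genes that rose and were searched, 7 held it. The TATA box was present in 13.6% of all promoters and 6.71% of those of tested genes. These are matches of letters and not measured binding.

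The 8 libraries held between 1.09 and 2.01 M counts on genes (M, 1e+06). Naive totals were 1.34, 1.36 and 1.09 M and swim totals 1.82, 1.58, 1.95, 1.16 and 2.01 M for replicates 1 to 5. Defining transcripts of pyramidal neurons were well counted, with Camk2a at 614 to 848 counts in naive and 1038 to 2557 in swim libraries, while P2ry12 of microglia and Cldn5 of endothelium were at 0 in all 8. Of the interneuron markers, 5 passed the low-count filter and 0 passed the test, and their summed level was 36.7 to 52.9 per M counts in naive and 42.4 to 130 in swim libraries. Of the astrocyte markers, 6 passed the filter and 0 passed the test, with sums of 64.7 to 89.5 and 94.1 to 176 per M counts. Aqp4 and Gfap, which define astrocytes, had at most 5 counts in any of the 8 libraries. Of the 10 microglia markers, 2 passed the filter and 0 passed the test. Both have an exon opposite another gene, the CPM values of the groups did not overlap in either, and 3 of the 10 were at 0 in all 8 libraries. The microglia sum was 622 to 698 per M counts in naive and 454 to 616 in swim libraries, with a list median of -0.66. The part of the interneuron, astrocyte and microglia sums in the results was not tested. The Shank3 gene itself had 10, 9 and 13 counts in naive and 20, 11, 34, 14 and 14 in swim libraries (log2 fold change -0.14, SE 0.38), and a count over the whole gene does not test the mutated allele. Shank3 has an exon opposite Gm15609, which was at 191 CPM in naive and 98.4 in swim libraries, beside 12.3 and 11.0 for Shank3. The Shank3 counts may therefore not be those of Shank3 RNA alone. Swim replicates 3 and 4 and naive replicate 2 stood apart from their groups: CT010467.1, annotated as ribosomal RNA, took 6.41% of the counts of naive replicate 2, 3.92% and 5.95% of those of swim replicates 3 and 4, and 0.595 to 1.27% in the other 5 libraries.

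Another library measure moved with the groups, and it touches all counts of genes below. In these 8 libraries 82.2% of counts lay on gene rows with an exon overlapping another gene on the opposite strand, and the strand setting of the counting is not given in the sources used here, so reads from such a gene and its opposite partner may not be told apart. In pairs of a coding gene and an antisense gene, only 10.8 to 11.9% of counts in naive and 12.6 to 16.8% in swim libraries lay on the coding gene. Whether counts were credited to the opposite gene was not tested. Genes without any annotated gene across from them on the other strand (no gene opposite) took 11.7, 9.52 and 11.2% of counts in naive libraries and 13.7, 15.2, 19.1, 16.5 and 14.3% in swim libraries. The groups did not overlap (two-sided exact permutation p = 0.0179, the smallest that 5 libraries against 3 can give). The scaling factors that edgeR's trimmed mean method (TMM) fitted to the libraries also did not overlap, at 0.635 to 0.742 in naive and 0.888 to 1.13 in swim libraries (two-sided exact permutation p = 0.0179). Gene results are therefore given by what lies opposite the gene and with a second scaling that uses library totals alone, and the part of these measures in the results was not tested beyond that.

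Across all genes, the swim response at 1 h held both directions. Levels are counts per M counts of the TMM-scaled library (CPM), and a gene is said to rise or fall where edgeR's quasi-likelihood test gave a Benjamini-Hochberg adjusted p under 0.05 over the 11341 genes tested. In pulled-down RNA of whole cortex, fewer cells with a transcript and less of it per cell cannot be told apart. By that rule 566 genes rose (4.99% of those tested) and 822 fell (7.25%), and 3560 genes had an unadjusted p under 0.05. In 516 of the risers (91.2%) and 755 of the fallers (91.8%) the CPM values of the 2 groups did not overlap, beside 12.4% of all tested genes with every swim library above every naive one and 16.2% with every one below. The median log2 fold change of all tested genes was 0.09. With library totals in place of TMM it was 0.57, and 1667 genes rose and 103 fell, so that the share of calls that were higher went from 40.8 to 94.2%. All 566 risers were called again under that scaling. Of the 822 fallers 103 were called again, and 0 changed sign.

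The direction of the calls differed with what lies opposite the gene. Among 4901 tested genes that have none across from them the median log2 fold change was 0.30, and 259 rose and 119 fell. Among 5172 with an exon opposite another gene the median was -0.30, and 239 rose and 674 fell. The remaining overlaps, 1262 genes, had a median of 0.31 with 68 risers and 27 fallers. When genes with no gene opposite were scaled and tested alone, 4339 passed the filter, their median was 0.06, and 76 rose (1.75%) and 108 fell (2.49%). All 76 of these risers and 89 of these fallers were also called with all genes in the model. By annotated type, 493 of the 566 risers were protein coding and 45 antisense, against 528 and 178 of the 822 fallers. The plot of fold changes by overlap class shows the shift between the classes.

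**Figure D1:**
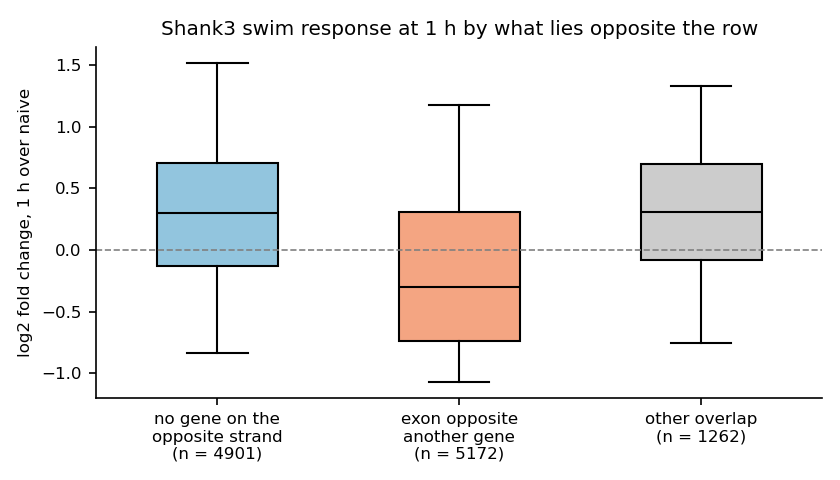
Log2 fold change of each tested gene, swim over naive at 1 h in Shank3 mutants, by what lies on the opposite strand; boxes span the quartiles with the median as a line, and whiskers run from the 5th to the 95th percentile. The medians are 0.30 with no gene opposite, -0.30 with an exon opposite another gene and 0.31 for other overlaps.

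The number of calls rested on single libraries. Without naive replicate 2, 50 genes rose and 8 fell, without naive replicate 3, 124 and 81, and without swim replicate 3, 169 and 85. Leaving out naive replicate 1 gave 401 and 482, and leaving out swim replicates 2, 4 and 5 in turn gave 375 to 424 risers and 391 to 486 fallers. Without swim replicate 1 there were more of both, 695 and 977. With swim replicates 3 and 4 both left out, 90 rose and 34 fell. Across all these fits of 1 library left out, 44 genes rose in every one and 7 fell in every one. The 44 were 4 genes with no gene opposite, namely Fos, Zyg11b, Nr4a3 and Lonrf2, then 38 with an exon opposite another gene, and Pkia and Glg1 with other overlaps. The 7 were Gucy2e and Mrpl54 with no gene opposite, and Epb41, Kcna6, Gm16252, mt-Nd6 and Prss57. The bar chart of calls by choice shows these counts side by side.

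**Figure D2:**
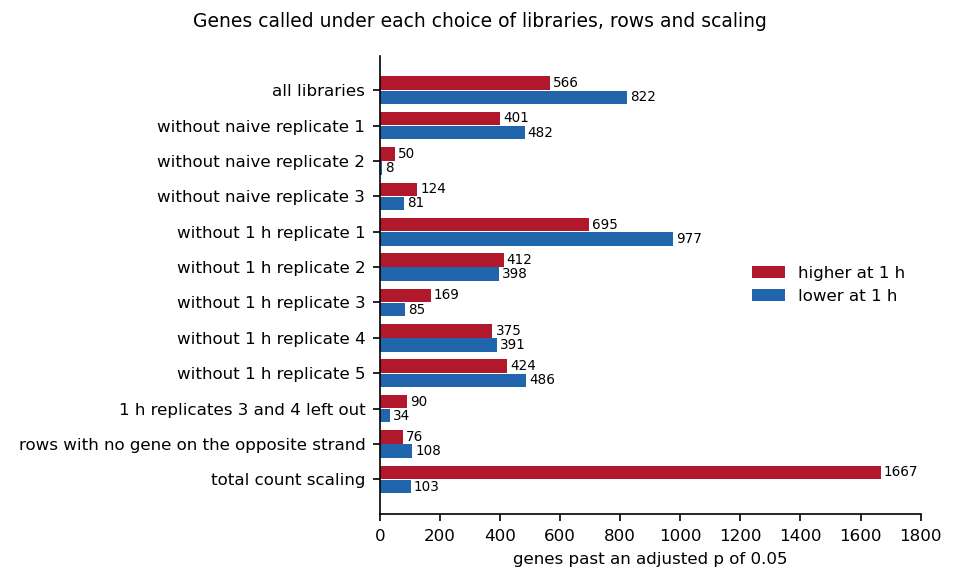
Number of genes past an adjusted p of 0.05 in edgeR's quasi-likelihood test, higher and lower at 1 h, with all libraries, with each library left out, with swim replicates 3 and 4 left out, for genes with no gene opposite tested alone, and with library totals in place of TMM. Calls go from 566 and 822 to 50 and 8 without naive replicate 2.

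Several rapid response genes rose. Of 34 tested members of the 4 lists of AP-1, Egr, Nr4a and other rapid regulators, 9 rose and 2 fell, 26.5% and 5.88% of them, beside 4.99% and 7.25% of all genes. Of the 822 genes that fell, 674 had an exon opposite another gene. The shares of lists here and below are not matched for what lies opposite the members. Fos, Nr4a1 and Nr4a3 rose by 1.97 to 3.16 on the log2 scale, while most partners of Fos in the AP-1 dimer and most of the Egr family did not pass the test. Of the 11 called, Fos and Nr4a3 were still called without naive replicate 2, and Fos, Nr4a1, Nr4a3, Arf4, Bhlhe40 and Jund with swim replicates 3 and 4 both left out.

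Fos, whose product pairs with Jun proteins to form AP-1, lies on chromosome 12 from 85473890 to 85477273 of mm10 (GENCODE vM21) on the plus strand. Its naive libraries had 5, 2 and 0 counts and its swim libraries 41, 34, 57, 31 and 36. All 5 swim libraries were above all 3 naive ones, and naive replicate 3 had none. The level went from 2.46 ± 2.53 CPM (SD, n = 3) to 24.1 ± 3.16 (SD, n = 5), or 3.16 on the log2 scale (SE 0.55, edgeR adjusted p = 0.000709). In the fit on genes with no gene opposite the value was 2.96 (edgeR adjusted p = 0.00829).

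The 3 Nr4a genes encode orphan nuclear receptors that activity induces in many neurons, and 2 of them rose. Nr4a1 had 1, 2 and 2 counts in naive and 29, 21, 38, 24 and 23 in swim libraries, with no overlap. Its log2 fold change was 3.06 (SE 0.67, edgeR adjusted p = 0.00758), and without naive replicate 2 the adjusted p was 0.0608. Nr4a3 had 1, 6 and 4 counts in naive and 24, 27, 27, 20 and 39 in swim libraries, again with no overlap. It rose from 4.35 ± 3.04 CPM (SD, n = 3) to 16.7 ± 3.26 (SD, n = 5), or 1.97 on the log2 scale (SE 0.43, edgeR adjusted p = 0.00758). Nr4a2 had 2, 2 and 3 counts against 11, 16, 24, 5 and 10, and its log2 fold change of 1.53 did not pass (edgeR adjusted p = 0.111).

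Among the Egr zinc finger factors and their Nab co-repressors, 1 of 6 tested genes rose, with a list median of 0.16 that was -0.33 among the 5 members tested without a gene opposite. Egr1 had 44, 39 and 48 counts in naive and 164, 164, 242, 123 and 201 in swim libraries, so every swim library was above every naive one. After scaling it went from 50.2 ± 9.14 to 107 ± 3.30 CPM (SD, n = 3 and 5), or 1.10 on the log2 scale (SE 0.31, edgeR adjusted p = 0.0248). The call was lost without naive replicate 1, 2 or 3 or swim replicate 3, with an adjusted p of up to 0.145. Egr2 had 0, 3 and 0 counts against 10, 3, 13, 11 and 9, a ratio of 4.87 after TMM scaling (95% exact interval 1.57 to 24.5, counting error only), and it did not pass (edgeR adjusted p = 0.0901). Egr3 was at 23, 25 and 24 against 49, 30, 52, 26 and 48 counts, with overlapping CPM and a log2 fold change of -0.16 with TMM and 0.32 with library totals. Egr4 was at -0.63 (edgeR adjusted p = 0.167).

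Of the 8 tested AP-1 genes, Fos rose and Jund fell. Jund, the AP-1 partner with high resting levels, went from 110 ± 22.7 to 63.1 ± 24.0 CPM (SD, n = 3 and 5), a change of -0.82 on the log2 scale (edgeR adjusted p = 0.0341), and its groups overlapped. Jund lies opposite Gm11175, which went from 4463 CPM in naive to 2491 in swim libraries and fell by 0.84 (edgeR adjusted p = 0.0458). The part of Gm11175 in the Jund counts was not tested. With library totals Jund was not called. Fosb, the closest relative of Fos, had 2, 2 and 1 counts against 11, 9, 9, 7 and 11, which did not overlap, and a log2 fold change of 1.56 that did not pass (edgeR adjusted p = 0.107). Jun at 0.59, Junb at 0.41, Fosl1 at -0.42, Fosl2 at -0.20 and Maff at -0.74 did not pass either. Jun had 8, 3 and 1 counts in naive and 14, 7, 17, 7 and 12 in swim libraries, so its change was measured with wide error (SE 0.50). It has an exon opposite Junos, which was at 326 CPM in naive and 297 in swim libraries, beside 4.28 and 6.74 for Jun. Junb and Fosl1 have an exon opposite Prdx2 and Ccdc85b.

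Among 17 other rapid regulators 5 rose and 1 fell. Bhlhe40, a clock-linked repressor, had 17, 11 and 18 counts against 72, 76, 106, 58 and 95, and rose by 1.48 on the log2 scale (SE 0.34, edgeR adjusted p = 0.00883). Arf4, a small GTPase of the Golgi, had 10, 7 and 6 counts against 32, 31, 65, 22 and 48 and rose by 1.42 (SE 0.33, edgeR adjusted p = 0.00883). Neither gene's groups overlapped, but Bhlhe40 and Arf4 both have an exon opposite a noncoding gene, 0610040F04Rik and Arf4os. Arf4os itself fell by 1.04 (edgeR adjusted p = 0.0351), and 0610040F04Rik at 0.12 did not pass. Nfil3, a repressor of the clock, had no counts in naive and 6, 5, 11, 1 and 5 in swim libraries. That is 2.97-fold higher if a floor of 3 counts is set over the naive group (lower end of the 95% exact interval 2.26, counting error only). Tiparp, which attaches ADP-ribose to proteins, had none in naive and 35 counts in all in swim libraries, 3.71-fold higher against the same floor (lower end of the interval 2.86). Mcl1, a survival factor of the Bcl2 family, rose by 0.77. Trib1, a pseudokinase, had 19, 26 and 14 counts against 17, 19, 14, 14 and 17 and fell by 1.16 on the log2 scale (edgeR adjusted p = 0.019), and with library totals it was not called.

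**Figure D3:**
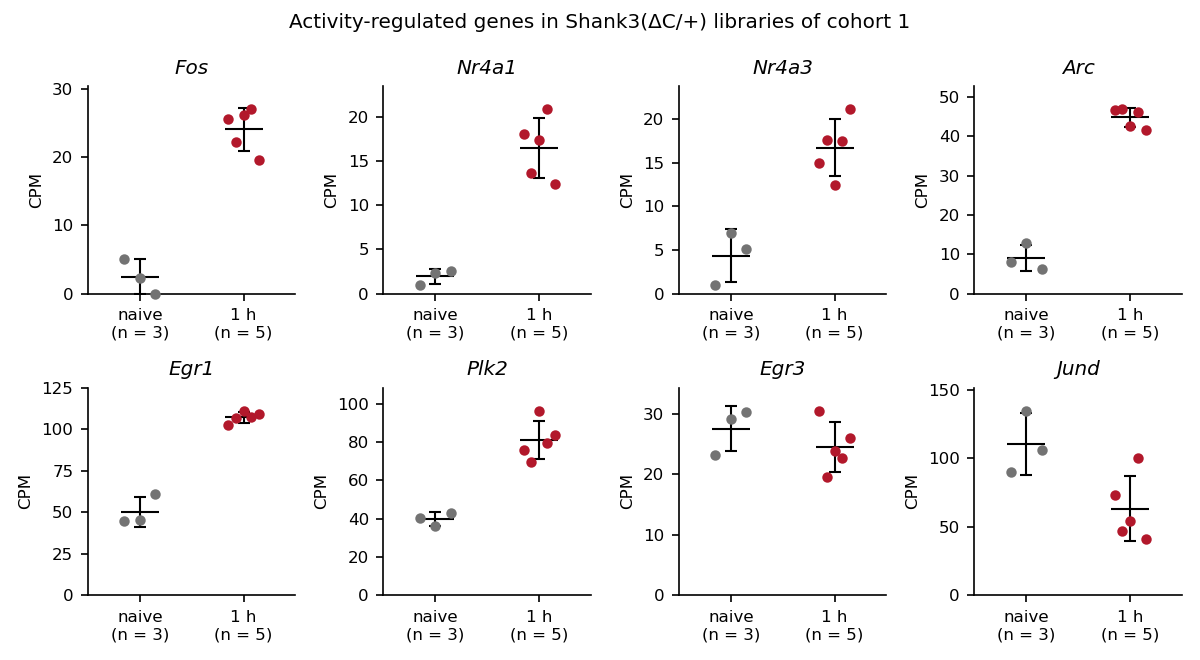
TMM-scaled CPM of 8 activity-regulated genes in the 3 naive and 5 swim libraries of Shank3 mutants, cohort 1; points are libraries, the wide bar is the mean and the error bar 1 SD. Fos, Nr4a1, Nr4a3, Arc, Egr1 and Plk2 do not overlap between the groups, while Egr3 and Jund do.

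Among genes of activity whose products act at synapses, 2 of 21 tested members rose and 1 fell, with a list median of 0.48 beside 0.09 over all genes. Arc, which drives removal of AMPA receptors from synapses, had 8, 11 and 5 counts in naive and 75, 72, 93, 53 and 77 in swim libraries. Its level went from 9.07 ± 3.34 to 44.9 ± 2.46 CPM (SD, n = 3 and 5), and the groups were far apart. The log2 fold change was 2.29 (SE 0.67, edgeR adjusted p = 0.0277), with an adjusted p of up to 0.122 when naive replicate 1, 2 or 3 or swim replicate 3 was left out. Plk2, a kinase that dampens excitatory synapses, had 40, 31 and 34 counts against 122, 107, 210, 91 and 155, with no overlap, and rose by 1.03 (SE 0.25, edgeR adjusted p = 0.0133, and 0.113 without naive replicate 2). Homer1, a scaffold with an activity-induced short form, was at 0.54 and did not pass (edgeR adjusted p = 0.167).

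Of 12 tested secreted factors regulated by activity, Vgf, a neuropeptide precursor, fell by 0.64 on the log2 scale (edgeR adjusted p = 0.0341) and none rose. The list median was -0.22 with TMM and 0.26 with library totals. Bdnf, the growth factor, was at 9.88 CPM in naive and 11.9 in swim libraries with a log2 fold change of 0.26 that did not pass. Among 26 tested Ras-ERK regulators 3 rose and none fell, including the exchange factor Rasgrf1 at 0.97 and the Ras-ERK inhibitor Spred1 at 0.93. Dusp1 at -0.37 and Dusp6 at -0.31, phosphatases that switch off MAP kinases, did not pass. Over these 58 genes together 5 rose and 2 fell, 8.62% and 3.45%, beside 4.99% and 7.25% of all genes. None of the 7 calls among these 58 effector, secreted and Ras-ERK genes held without naive replicate 2.

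The 12 rising genes with the smallest p and no gene opposite included 9 outside the rapid lists. Zyg11b, a substrate receptor of a ubiquitin ligase, had 12, 11 and 9 counts in naive and 46, 49, 92, 39 and 54 in swim libraries. Its groups did not overlap, and it rose by 1.46 (SE 0.27, edgeR adjusted p = 0.00153), with an adjusted p of at most 0.0207 when any 1 library was left out. Lonrf2, a ring finger protein, had 17, 20 and 13 counts against 53, 74, 136, 60 and 83, with no overlap, and rose by 1.35 (SE 0.30, edgeR adjusted p = 0.00792). Srsf9, a splicing factor, had 13, 1 and 7 counts against 39, 52, 53, 50 and 75 and rose by 2.06 (SE 0.40, edgeR adjusted p = 0.00254), or 1.57 without naive replicate 2, which had the 1 count. Pde1a, a calcium-activated phosphodiesterase of cyclic nucleotides, had 118, 56 and 75 counts against 247, 290, 479, 232 and 334 and rose by 1.02 (SE 0.22, edgeR adjusted p = 0.00705). The others were Dnah7c at 2.53, a dynein heavy chain, Smarca5 at 1.67, a chromatin remodeller, Scoc at 1.67, Amt at 1.51, an enzyme of glycine cleavage, and Ehbp1 at 1.20. Of these 9, Zyg11b and Lonrf2 kept the call whichever library was left out. Dnah7c lost it without naive replicate 3 (edgeR adjusted p = 0.0508), and the other 6 lost it without naive replicate 2, with adjusted p of up to 0.106.

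The 12 falling genes with the smallest p and no gene opposite fell by 0.94 to 2.09 on the log2 scale. Gucy2e, a membrane guanylyl cyclase, had 35, 33 and 38 counts in naive and 12, 12, 32, 11 and 13 in swim libraries. No swim library reached the lowest naive count, and the level fell from 40.6 ± 6.64 to 9.33 ± 3.16 CPM (SD, n = 3 and 5), a change of -2.09 on the log2 scale (SE 0.44, edgeR adjusted p = 0.00635). Mrpl54, a mitochondrial ribosomal protein gene, had 43, 29 and 31 counts against 31, 23, 37, 11 and 27. Its raw counts overlapped but its CPM did not, and it fell by 1.34 (SE 0.31, edgeR adjusted p = 0.00883). Cnnm2, linked to magnesium transport, had 77, 108 and 66 counts against 92, 71, 74, 44 and 80 and fell by 1.12 (SE 0.23, edgeR adjusted p = 0.00357).

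The other 9 fallers were Prss36 at -1.94, a protease, Fxyd1 at -1.47, a regulator of the sodium pump, Taf15 at -1.39, an RNA-binding protein of the FET family, Ccdc188 at -1.30, Tmem80 at -1.26, the potassium channel subunits Kcns2 at -1.02 and Kcna1 at -0.99, Irf2bpl at -0.96 and Zmat3 at -0.94, a p53 target. Gucy2e and Mrpl54 kept the call whichever library was left out, and the other 10 of the 12 lost it without naive replicate 2. With library totals 9 of the 12 were called, and Kcna1, Irf2bpl and Kcns2 were not (edgeR adjusted p = 0.123, 0.0656 and 0.0659).

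Most of the rises that kept their call in every fit, 38 of 44, were on genes with an exon opposite another gene. Prpf39, a splicing factor opposite Fkbp3, lies on chromosome 12 from 65036333 to 65063386 and had 156, 96 and 97 counts in naive and 1262, 1226, 1419, 868 and 1518 in swim libraries. Every swim library was far above every naive one. The level went from 131 ± 24.1 to 763 ± 66.6 CPM (SD, n = 3 and 5), a change of 2.54 on the log2 scale (SE 0.36, edgeR adjusted p = 6.28e-05). Fkbp3 also rose, by 0.69 (edgeR adjusted p = 0.0487). Gt(ROSA)26Sor, the noncoding gene of the Rosa26 locus opposite Thumpd3, had 4, 3 and 4 counts against 62, 81, 119, 54 and 101, with no overlap, and rose by 3.55 (SE 0.53, edgeR adjusted p = 9.92e-05). Cox6c, a subunit of cytochrome c oxidase opposite Vps13b, had 31, 9 and 19 counts against 115, 151, 147, 76 and 146 and rose by 1.79. Prg4, opposite Tpr, had 5, 5 and 6 counts against 47, 47, 78, 34 and 82 and rose by 2.48.

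The partners of these genes had smaller median changes. Of the 38 genes with an exon opposite that rose in every fit, 37 had a partner that was tested, with a median log2 fold change of 0.22, and 4 partners rose and 4 fell. In 30 of these pairs the rising gene had more counts than its partner. Of all 239 risers with an exon opposite, 215 partners were tested, 26 rose, 13 fell and the median was 0.16. Of the 674 fallers with an exon opposite, 584 partners were tested, 11 rose, 91 fell and the median was -0.40. Partners have an exon opposite too, and over all 5172 tested genes of that class 239 rose, 674 fell and the median was -0.30. The median of the risers' partners lay above that value, and the median of the fallers' partners was closer to it. Falling examples were Epb41, which links the membrane to the actin cytoskeleton, at -1.15 opposite Gm10300, Kcna6, a potassium channel, at -1.32 opposite Gm26673, Exoc5 of the exocyst at -1.14 opposite Ap5m1, and mt-Nd6 of respiratory complex I at -1.12 opposite mt-Nd5. Epb41 had 59, 50 and 39 counts against 45, 30, 58, 30 and 46, which overlapped before scaling and not after it. Gm10300 itself fell by 1.67 (edgeR adjusted p = 0.0169), while Gm26673, Ap5m1 and mt-Nd5 did not pass. Exoc5 lost the call without naive replicate 2 (edgeR adjusted p = 0.0769), and mt-Nd6 was not called with library totals (edgeR adjusted p = 0.0617).

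Stress pathways moved in few members. Of 99 tested genes of glucocorticoid, clock, heat shock, endoplasmic reticulum stress and cold lists, 8 rose and 2 fell, 8.08% and 2.02%, beside 4.99% and 7.25% of all genes. None of these 10 calls held without naive replicate 2. Of 22 tested glucocorticoid-responsive genes, Bcl6, a transcriptional repressor, rose from 2 counts over the naive group to 39 over the swim group, a ratio of 6.20 after TMM scaling (95% exact interval 1.60 to 53.0, counting error only). Bcl6 has an exon opposite Gm37419, which was at 10.5 CPM in naive and 26.8 in swim libraries. The usual reporters of corticosterone were not called, with Fkbp5 at -0.15, Sgk1 at 1.28, Tsc22d3 at 0.42 and Per1 at 0.94, and the glucocorticoid receptor gene Nr3c1 was at 0.69 (edgeR adjusted p = 0.0614). Among 22 clock genes, Bhlhe40 and Nfil3 rose, which are also counted among the rapid regulators above, and the list median was 0.59.

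Among 29 tested cytosolic chaperone genes 2 rose and 2 fell. Dnajb1, a co-chaperone, had 18, 8 and 17 counts against 43, 59, 83, 48 and 56 and rose by 1.10 (SE 0.31, edgeR adjusted p = 0.0234). Hsp90aa1, the inducible Hsp90, went from 675 to 1197 CPM and rose by 0.83. Hspa1a, the inducible Hsp70, had 15, 9 and 8 counts against 7, 4, 12, 5 and 5 and fell by 1.59, and Stub1, a ligase that works with Hsp70, fell by 0.81. Hspa1a and Stub1 each have an exon opposite another gene, and with library totals neither was called. Of 21 endoplasmic reticulum stress genes 3 rose, namely Manf at 1.46, a secreted stress factor, Atf4 at 1.15, the factor of the integrated stress response, and Asns at 1.11, an Atf4 target. Manf has an exon opposite 4930524O07Rik, which was at 1629 CPM in naive and 1780 in swim libraries, beside 9.79 and 27.0 for Manf. Hspa5, the main chaperone of that compartment, was at 0.14 and did not pass. Of 6 cold-inducible genes none passed, and their median was 0.10.

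Neuronal gene groups held few calls. Of 179 tested members of 6 lists, 9 rose and 3 fell, 5.03% and 1.68%, a share of risers near the 4.99% of all genes. None of 21 glutamate receptor genes and none of 14 GABA receptor genes passed, with medians of 0.12 and 0.02. Among the glutamate receptor genes the smallest p belonged to Grin2d at -0.79 and Grin1 at 0.96, both NMDA receptor subunits (edgeR adjusted p = 0.0678 and 0.0686). Both have an exon opposite another gene. Grin1 was at 9.64 CPM in naive and 18.6 in swim libraries, beside 3351 and 2128 for Grin1os opposite it. Of 38 postsynaptic density genes, Camk2d at 1.59, Ppp3r1 at 1.38, the regulatory subunit of calcineurin, Sorbs2 at 0.98 and Dlg1 at 0.58 rose and the scaffold Homer3 fell by 0.79. Sorbs2 has an exon opposite Sorbs2os, which itself rose by 1.04 (edgeR adjusted p = 0.032). Camk2d, a calcium-dependent kinase, had 9, 7 and 16 counts against 47, 59, 111, 29 and 72, with no overlap. Of 39 presynaptic genes, Syn2 at 0.95 and Napb at 1.07 rose, and Syt1, the calcium sensor of vesicle release, fell by 0.62. Syn2 has an exon opposite Timp4, which was at 1611 CPM in naive and 2676 in swim libraries, beside 88.2 and 170 for Syn2. Of 45 voltage-gated channel genes Kcna1 fell and none rose. Of 22 genes of cyclic nucleotide turnover, Pde1a at 1.02, Pde8b at 0.77 and the kinase subunit Prkacb at 0.81 rose. None of these 12 calls held without naive replicate 2, and 4 of the 12 genes have no gene opposite.

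Genes of protein and energy supply had list medians above that of all genes, with few calls. Of 256 tested members of 6 lists, 19 rose and 8 fell, 7.42% and 3.12%. The medians were 0.44 for 73 ribosomal protein genes, 0.48 for 76 nuclear genes of oxidative phosphorylation, 0.51 for 44 translation factors, 0.45 for 31 proteasome genes and 0.81 for 20 sterol synthesis genes, beside 0.09 over all genes and 0.30 over genes with no gene opposite. In the fit on genes with no gene opposite these medians were 0.24, 0.34, 0.32, 0.29 and 0.79, beside 0.06. Of the 12 mitochondrially encoded genes tested, mt-Nd6 fell, and their median was 0.73 as fitted and -0.12 with 3 genes that had no naive counts set at their bound. Rising members included Eif4g1 at 0.90 and Eef1a1 at 1.15, factors of translation initiation and elongation, Cycs at 1.10, which is cytochrome c, Psma2 at 1.21 of the proteasome core, and Fdft1 at 1.10 and Hmgcs1 at 0.82 of the sterol pathway. Falling members included Rpl18 at -1.13, Eif2b4 at -0.95 and Ndufs3 at -0.69, all with an exon opposite another gene. Fdft1 and Hmgcs1 have one too, opposite Ctsb and Gm48342. Gm48342 went from 740 CPM in naive to 1675 in swim libraries and itself rose by 1.18 (edgeR adjusted p = 0.00792). Cox6c and mt-Nd6 held without naive replicate 2, and the other 25 of the 27 did not. Of the 27, 12 have no gene opposite. Over all 24 lists together, 64 of 618 tested members were called, 48 higher (7.77%) and 16 lower (2.59%), beside 4.99% and 7.25% of all genes. Among all tested genes, 119 of 4901 with no gene opposite fell, against 674 of 5172 with an exon opposite another gene. The list shares are not matched for these classes, so fewer fallers than among all genes is not a result about the lists. Of the 64 called, 4 were still called without naive replicate 2, namely Cox6c, Fos, Nr4a3 and mt-Nd6. With swim replicates 3 and 4 both left out 12 of the 64 were called. With library totals 49 were called, 48 of the 48 risers and 1 of the 16 fallers.

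**Figure D4:**
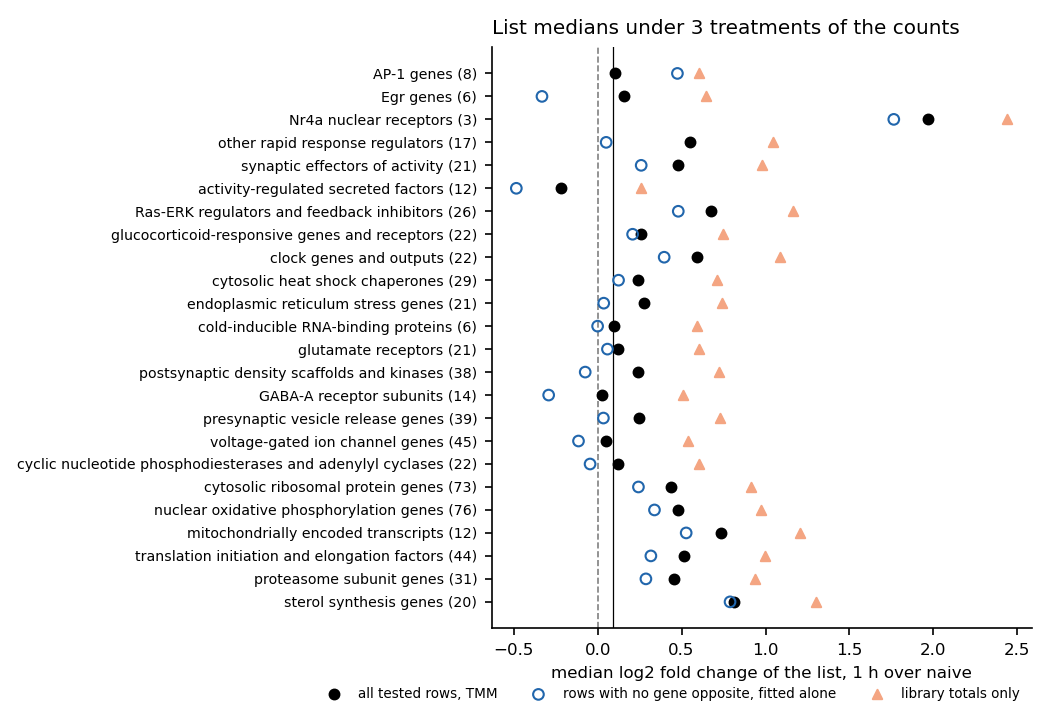
Median log2 fold change of each gene list at 1 h, with the number of tested members in parentheses: filled circles for all tested genes with TMM, open circles for genes with no gene opposite tested alone, triangles for library totals in place of TMM. The solid line is the median of all tested genes with TMM, 0.09, and the dashed line is 0; Nr4a genes lie farthest right, and library totals move each list to the right.

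WT littermates gave a response of their own, measured in separate naive and swim libraries, in which 1917 genes rose (16.9%) and 1962 fell (17.3%). Of the 566 Shank3 risers 424 also rose in WT, 74.9% of the Shank3 risers and 22.1% of the WT risers, and 558 had the same sign. Of the 822 fallers 737 also fell, 89.7% of the Shank3 fallers and 37.6% of the WT fallers, and 820 had the same sign. The larger number of WT calls does not show a difference between genotypes, which was tested directly as Shank3 less WT. That test called 0 genes (0%) by edgeR, with 468 at an unadjusted p under 0.05, and DESeq2 and limma also called 0. The 44 genes that rose in every Shank3 fit had a median log2 fold change of 2.41 in Shank3 and 1.99 in WT mice, and all 44 rose in WT. They were chosen by their Shank3 values, which favours the larger Shank3 median.

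For the activity genes described above, the responses of the 2 genotypes were compared one by one. Fos was at 3.16 in Shank3 and 3.26 in WT, with a difference of -0.10 (SE 1.02), and Nr4a3 at 1.97 and 2.01, with a difference of -0.04 (SE 0.67). Nr4a1 was at 3.06 and 3.17, with a difference of -0.10 (SE 1.32). Arc at 2.29 and 3.39, Egr1 at 1.10 and 1.72 and Plk2 at 1.03 and 1.79 had differences of -1.10 (SE 1.12), -0.61 (SE 0.44) and -0.76 (SE 0.36). None of the 6 passed (edgeR adjusted p = 1 for each), and for Fos, Nr4a1, Nr4a3 and Arc the standard error was as large as the difference or larger, so these data do not show that the genotypes respond alike. The smallest p of the difference was that of Ppm1d, a phosphatase of the p53 pathway, at -4.11 (SE 0.85, edgeR adjusted p = 0.221). Ppm1d was at -0.04 in Shank3 and 4.07 in WT mice, where the naive level was 0.384 CPM. The next were Atp6v0b at -1.33 and Acat2 at -2.30 (edgeR adjusted p = 0.392 for both), then Mindy3 at -3.31 and Ncam2 at -3.48 (edgeR adjusted p = 1). Mindy3 and Ncam2 also had low WT naive levels, 1.10 and 0.576 CPM. Their swim levels were 5.71 and 9.41 CPM in Shank3 and 7.55 and 8.30 in WT mice.

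At 4 h, measured in cohort 2 against its own naive mice, 32.7% of genes rose and 29.4% fell. Of the 566 genes that rose at 1 h, 314 rose at 4 h, 55.5%, and 21 fell, and of the 822 that fell at 1 h, 748 fell at 4 h, 91.0%. The difference of 4 h less 1 h was called higher in 116 genes (1.02%) and lower in 219 (1.93%), and time and cohort cannot be told apart in it. Of the 44 genes that rose at 1 h in every fit, 24 were lower at 4 h by that test. The 44 were chosen by their high 1 h values, which the difference subtracts, so the choice itself favours lower values at 4 h. Egr3, which did not pass at 1 h, was at 2.08 at 4 h, a difference of 2.23 (SE 0.50, edgeR adjusted p = 0.0117). Fos was at 1.63, Arc at 1.52, Egr1 at 1.51 and Nr4a3 at 1.69 at 4 h.

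The 5 smallest p of the difference between the times all belonged to genes with an exon opposite another gene that rose at 1 h. Prpf39 went from 2.54 at 1 h to -0.61 at 4 h, a difference of -3.16 (SE 0.44, edgeR adjusted p = 0.000119). Adam17, a protease that sheds membrane proteins and lies opposite Iah1, had 4, 1 and 2 counts in naive and 54, 50, 45, 28 and 61 in swim libraries at 1 h, and went from 3.42 to -0.69. Araf, a kinase of the Raf family opposite Syn1, went from 1.23 to -1.15, Sla2 opposite Rab5if from 1.85 to -0.66 and Myo19, a mitochondrial myosin opposite Znhit3, from 2.59 to -0.48. The 38 genes with an exon opposite that rose in every 1 h fit had a median of 2.51 at 1 h, 2.11 in WT at 1 h and 0.30 at 4 h, where 12 of them rose, 31.6%. These genes too were chosen by their Shank3 values at 1 h, which favours the first of these medians. The 4 with no gene opposite all rose at 4 h too, with a median of 1.49. Of all tested genes, 44.8% of those with no gene opposite rose at 4 h, and 18.7% of those with an exon opposite another gene. The scatter of the genes that kept their call in every 1 h fit shows both comparisons.

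**Figure D5:**
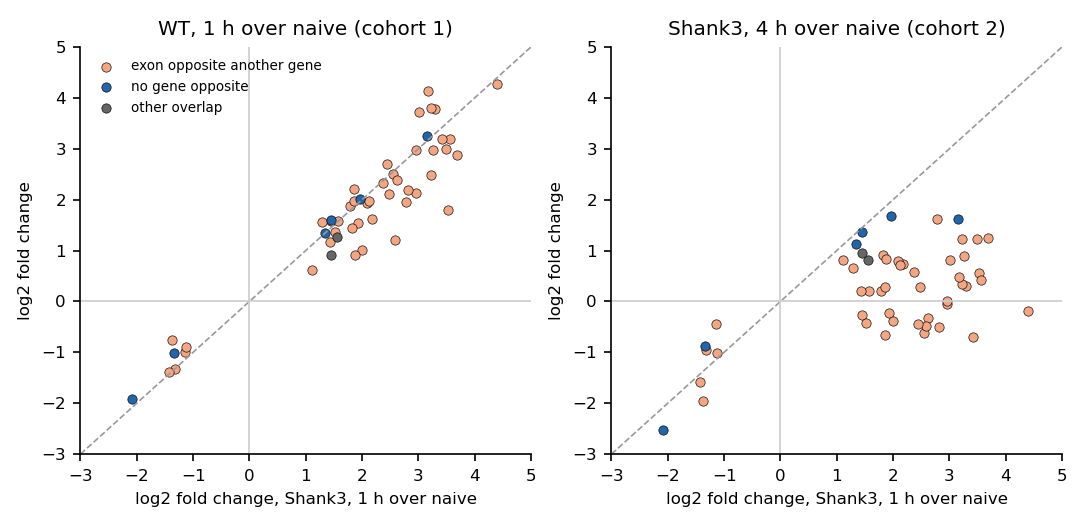
Log2 fold change in WT mice at 1 h (left) and in Shank3 mutants at 4 h (right) against the Shank3 value at 1 h, for the 44 genes that rose and the 7 that fell in every fit with 1 library left out; colours give what lies opposite the gene and the dashed line marks equal values. On the left points lie near the line, with medians of 2.41 and 1.99 for the risers, and on the right most risers lie below it, with a median of 0.45 at 4 h; the genes were chosen by the values on the x axes.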

How the data were processed

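Paired 100-base libraries of HA-immunoprecipitated RNA were prepared with a stranded mRNA kit, per the labels' protocols. The authors deposited 1 whole-number count per Ensembl gene and library, 55470 genes each. The submitters' processing notes name Trimmomatic 0.39, FastQC, HISAT2 2.2.0, StringTie 2.1.3, Salmon 1.4, DESeq2 and mm10, with no roles. Totals of 1.09 to 2.01 M counts stand beside the 15 M reads per library that the labels state.

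The deposited counts of all 36 libraries were fitted in 8 cells of genotype, treatment and cohort with edgeR 4.0.16 (R 4.3.3; filterByExpr, TMM, robust quasi-likelihood, 28 residual degrees of freedom), and p-values were adjusted by Benjamini-Hochberg over 11341 genes. Standard errors were taken from the size of each fold change and its F statistic. Overlaps came from GENCODE vM21, and 55143 genes matched a symbol. In simulated counts on 10327 genes for the 1 h Shank3 comparison, 3.4% of 1.5-fold, 23.1% of 2-fold and 88.5% of 4-fold changes were recovered.

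Named were the 12 rising and 12 falling genes of smallest p with no gene opposite and a mean log2 CPM of at least 1, 4 and 4 with an exon opposite, all AP-1, Egr and Nr4a genes and Arc, the 3 of smallest p per other list, Shank3, and the 5 of smallest p per difference. Other list members were named after their values were seen. Some results that the rule would name are not reported here. Members and lists were chosen with earlier results of these data known. The labels do not tie libraries to separate mice, so a p-value then measures only spread among these samples, which may be technical. Alternatives were DESeq2 1.42.0, limma 3.58.1, RLE scaling, no filter, fewer groups, a replicate block, a pair share covariate (the share of counts of antisense and coding pairs that lies on the coding gene), genes with no gene opposite, and each library left out. Leaving out swim replicates 3 and 4 together, leaving out the ribosomal RNA row, and library totals were chosen after seeing the data.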

Additional observations from a re-analysis of the deposited data

Results flagged for a closer look

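In 7 of 106 named values tested for a lone library among the 5 swim libraries, 1 library lay apart by Dixon's test, which chance gives in about 1 in 20 groups. Swim replicate 1 was apart in Amt (23.1 CPM), Zmat3 (168.3 CPM), Ndufs3 (147.1 CPM) and Psmd14 (89.1 CPM). Swim replicate 3 was apart in Syt1 (325.3 CPM) and Psma2 (46.9 CPM), and swim replicate 5 in mt-Nd2 (22.2 CPM).

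In 12 named genes the Shank3 response at 4 h differed from that at 1 h by edgeR's test of the difference, with time and cohort not separable. The difference, 4 h less 1 h on the log2 scale, was -1.92 in Srsf9, -1.81 in Amt, -2.85 in Dnah7c, -3.16 in Prpf39, -3.13 in Gt(ROSA)26Sor, -1.57 in Cox6c, -2.19 in Prg4, -2.38 in Araf, -4.11 in Adam17, -2.51 in Sla2 and -3.07 in Myo19. It was 2.23 in Egr3, the 1 gene of the 12 that was higher at 4 h.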

How the results depend on the processing

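Of the 566 higher and 822 lower genes, other counts were 1369 and 1560 with the libraries of the 2 groups alone, 919 higher with cohort 1 alone, 76 and 108 with genes that have no gene opposite, 90 and 34 without swim replicates 3 and 4, and 1667 and 103 with library totals. With 1 library left out in turn they ranged from 50 to 695 higher and from 8 to 977 lower. The smallest counts came without naive replicate 2, and the cause was not tested. The difference from WT was 0 to 2 genes with 1 library left out, with 2 without WT naive replicate 3. The difference of 4 h less 1 h, 335 genes, was 607 with DESeq2, 639 with no filter, 168 with the groups compared alone, 105 with the pair share covariate, 117 with genes that have no gene opposite, and 40 to 974 with 1 library left out. The cause of these changes was not tested. Same-numbered naive and swim libraries did not deviate together (r = -0.10, 0.05 and 0.03 in Shank3, not every library closest to its own number). With the replicate block 261 genes rose, 232 fell and 105 differed between the times. Genes that did not pass changed sign as follows: Fosl1 to 0.057 with the pair share covariate and 0.055 with library totals; Fosl2 to 0.14 without naive replicate 1 (-0.37 without naive replicate 3) and 0.28 with library totals; Nab1 to 0.043 with the replicate block, 0.33 without naive replicate 2 (-0.44 without naive replicate 3), 0.02 without swim replicate 4 and 0.38 with library totals; and Shank3 to 0.12 without naive replicate 3 (-0.32 without swim replicate 3) and 0.35 with library totals. With library totals Egr3 went to 0.32 and Clk4 to 0.081. At 1.09 to 2.01 M counts a library, genes with few naive counts such as Egr2 and Nr4a2 were measured with wide error.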
